A study of Homo sapiens with 4 samples.

Results

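SNX20, SPNS3, USP4, MEFV, AP5B1 and TSPOAP1 were taken as genes whose 5′ ends had gained H3K27Ac cover under co-treatment with SNDX-50469 and OTX015, outside the chromosomes that peaks covered most densely (5, 6, 8, 13, 19 and 20). They are 6 of 19675 protein-coding genes and 6 of the 14827 that lie off those chromosomes. The genes were chosen by this difference in cover at the 5′ end, between the same libraries that are described here, so their gains are a description and were not tested. Cover means the length of a region that lies under peaks, and it was read in a window of 10 kb either side of the 5′ end and in the locus, the gene body with 10 kb either side. Against its listing, TSPOAP1 had slightly less cover in its 5′ window under co-treatment, and its gain lay in the gene body.

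H3K27Ac was mapped by ChIP-seq with tagmented libraries in MOLM13, a human acute myeloid leukaemia line that carries the MLL-AF9 fusion. Cells received 500 nM SNDX-50469 with 500 nM OTX015, or 500 nM OTX015 alone, in each case for 16 hours, with 1 ChIP library per treatment. Titles spell the mark H2K27Ac and the antibody label spells it H3K27Ac, which was followed. An input library goes with each treatment but no processed values of it were used, and cells without drug or with SNDX-50469 alone were not analysed here.

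Acetylation of lysine 27 of histone H3 marks active promoters and enhancers, and BET proteins read acetylated histones through their bromodomains, which OTX015 blocks. SNDX-50469 blocks the docking of Menin on MLL proteins, on which MLL-FP-driven transcription depends. In myeloid cells broad H3K27Ac domains are known at genes of granulocyte and monocyte function. MEFV encodes pyrin, an inflammasome sensor of neutrophils and monocytes that responds to inactivation of RHOA. SNX20 is a sorting nexin that binds the leukocyte adhesion ligand PSGL-1 (the product of SELPLG), and AP5B1 is the beta subunit of adaptor complex 5, which sorts cargo at late endosomes. SPNS3 belongs to the Spinster family of transporters, whose member SPNS2 exports sphingosine-1-phosphate, USP4 is a ubiquitin-specific protease, and TSPOAP1 is a binding protein of the mitochondrial protein TSPO. Just upstream of TSPOAP1 lies the gene of miR-142, a microRNA of blood cells.

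The 250 bases before the gene start are shown for USP4, AP5B1 and MEFV because they contrast in CpG content and in whether a peak reached them, and for MIR142HG, the miR-142 host gene, because it lies under the longest peak near any of the 6 genes. They are from RefSeq (GRCh38.p14), 5′ to 3′ on the minus strand, at chr3:49340054-49340303, chr11:65780977-65781226, chr16:3256634-3256883 and chr17:58332521-58332770. Capitals mark a match to 1 of 5 short motifs searched on both strands, GAGGAAGT (PU.1), CCGGAAG (ETS), TGAGTCA (AP-1), TGTGGTT (RUNX) and CACGTG (E-box).
USP4: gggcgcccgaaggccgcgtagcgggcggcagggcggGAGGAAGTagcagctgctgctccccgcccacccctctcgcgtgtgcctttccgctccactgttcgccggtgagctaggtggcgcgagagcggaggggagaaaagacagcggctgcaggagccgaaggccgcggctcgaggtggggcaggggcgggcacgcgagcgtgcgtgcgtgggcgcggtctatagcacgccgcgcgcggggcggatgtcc
AP5B1: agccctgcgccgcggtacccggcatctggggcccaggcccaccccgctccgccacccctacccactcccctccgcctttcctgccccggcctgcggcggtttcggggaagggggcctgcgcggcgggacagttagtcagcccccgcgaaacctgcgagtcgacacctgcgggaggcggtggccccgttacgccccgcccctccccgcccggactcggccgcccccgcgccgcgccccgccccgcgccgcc
MEFV: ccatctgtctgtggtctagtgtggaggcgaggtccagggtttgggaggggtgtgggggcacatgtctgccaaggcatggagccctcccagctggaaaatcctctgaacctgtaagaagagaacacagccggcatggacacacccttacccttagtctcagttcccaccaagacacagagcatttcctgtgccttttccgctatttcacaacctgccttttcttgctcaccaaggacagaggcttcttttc
MIR142HG: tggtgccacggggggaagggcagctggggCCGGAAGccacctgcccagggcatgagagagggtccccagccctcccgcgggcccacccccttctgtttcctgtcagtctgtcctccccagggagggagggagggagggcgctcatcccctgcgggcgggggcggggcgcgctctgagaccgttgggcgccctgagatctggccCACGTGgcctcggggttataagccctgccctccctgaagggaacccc

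USP4 and AP5B1 each held 35 CpG dinucleotides in this stretch, with 74.0% and 79.6% G or C, while MEFV held 3 CpG with 54.0% G or C. The median over 35116 promoters of the table was 11 CpG, and 4.85% of them held more than 35. None of the 250 bases of AP5B1 or MEFV lay under a peak of either library. All 250 bases of USP4 lay under a peak of the co-treated library and none under a peak of the OTX015 library. That co-treated peak stood 6.0 times over the background of its library, and the weakest OTX015 peaks stood 6.54 times over theirs. The part of this listing level in the contrast at USP4 was not tested. The PU.1 letters of USP4 started at −214 from the gene start, and 2.2% of promoters hold them. MIR142HG had the ETS letters at −221 and the E-box at −47, which 8.52% and 6.34% of promoters hold, and all of its 250 bases lay under peaks in both libraries. A match shows only that the letters are present.

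The mature products of MIR142 are given with the seed, bases 2 to 8, in capitals, since the hairpin, upstream of TSPOAP1, lies under its broadest peak in both libraries, at chr17:58331232-58331318.
hsa-miR-142-3p: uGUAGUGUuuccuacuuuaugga
hsa-miR-142-5p: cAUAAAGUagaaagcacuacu

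The seeds differ, and both mature sequences lay wholly under peaks of both libraries, 2450 and 2488 bp upstream of the TSPOAP1 5′ end.

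The peak lists held 86207 peaks for co-treated cells and 55852 for OTX015 cells. Of these, 17329 co-treated and 15586 OTX015 peaks lay off the dense chromosomes. The lists carry no read numbers, so the background was solved from the weakest peaks, at 1.47 overlapping fragments in the co-treated library and 0.764 in the OTX015 library, a depth ratio of 1.92. The weakest co-treated peaks therefore stood 4.76 times over their background, against 6.54 times for the weakest OTX015 peaks. Peaks that are weak relative to background could enter the co-treated list and not the OTX015 list, and the gains are therefore also given at a common enrichment. Off the dense chromosomes the total cover was nearly equal, at 7.42 Mb in co-treated cells and 7.45 Mb in OTX015 cells. Of 15 myeloid marker genes, 13 had cover in their 5′ windows in co-treated cells and 10 in OTX015 cells, and FCGR1A and CD14 had none in either. Of 9 lymphoid markers, CD3D and CD79A had cover, in both libraries, and of 6 erythroid and megakaryocytic markers 2 had cover in co-treated cells and 1 in OTX015 cells. Of 7 markers from outside blood 2 had cover in each library. The summed cover of the myeloid markers was 57.3 kb in co-treated cells and 46.4 kb in OTX015 cells, that of the lymphoid markers 3.91 and 3.13 kb, of the erythroid and megakaryocytic markers 3.21 and 0.499 kb, and of the markers from outside blood 1.47 and 0.257 kb. These counts and sums take in the dense chromosomes, and bases under overlapping windows count more than once. Away from those chromosomes 7 myeloid markers had cover, 5 with more in co-treated cells and 2 with less. There 1 lymphoid marker had cover, with less in co-treated cells, and no erythroid or megakaryocytic marker had any. Of the markers from outside blood 3 had cover there, 2 with more and 1 with less. The markers did not all move one way, since the granule protease gene CTSG had 1.11 kb in co-treated cells and 4.86 kb in OTX015 cells. Their part in the results below was not tested. With 1 library per treatment, no difference below has a replicate check.

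The 6 windows together held 36.98 kb under peaks in co-treated cells and 18.2 kb in OTX015 cells. The window was covered more under co-treatment at 5 of the 6 genes, the number that the choice sets, while 53.3% of the 5638 genes with cover off the dense chromosomes were covered more. The same 5 genes gained at least 3 kb, as did 0.248% of those genes. Over all 5638 the median difference was 0.0900 kb. In the locus the 6 genes held 42.7 kb in co-treated cells and 20.1 kb in OTX015 cells. All 6 loci were covered more, against 53.2% of 8775 loci, and 5 gained at least 3 kb, against 0.752%, with SPNS3 as the exception at 2.88 kb. Nothing is read from these shares, since the choice used the same contrast.

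**Figure D1:**
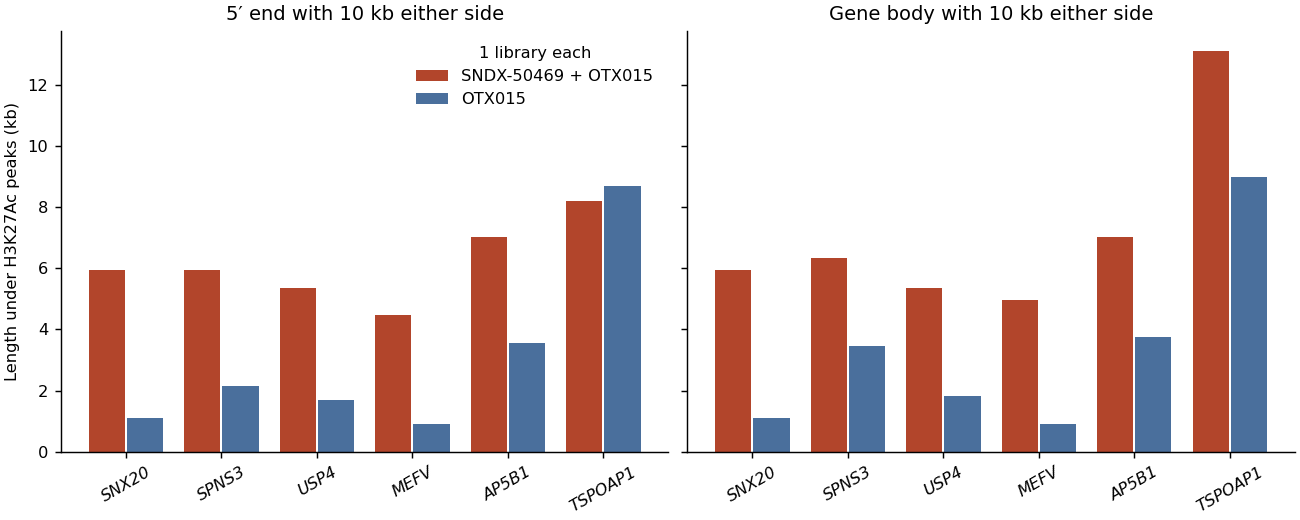
Length under H3K27Ac peaks in kb for each gene, in the 5′ window (left panel) and in the locus (right panel), with SNDX-50469 + OTX015 and OTX015 as bars of 1 library each. The 5′ window of TSPOAP1 is the only one where the co-treated bar (8.20 kb) is below the OTX015 bar (8.69 kb), and in the locus it is above (13.1 and 8.98 kb).

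Measured by the difference in the 5′ window, with 5′ ends at least 20 kb apart, SNX20 had place 2, SPNS3 place 4, USP4 place 5, MEFV place 6 and AP5B1 place 8 among the genes off the dense chromosomes. Genes of this stretch that are not among the 6 were CCL3L3, with 9.83 kb in co-treated cells and 4.87 kb in OTX015 cells, MPO, with 9.92 and 5.61 kb, and CEBPE, with 3.48 and 0 kb. CCL3L3 is a chemokine gene with near-identical copies, so its reads may be shared among them. AP5B1 gained 3.45 kb and the next gene, MYBPH, which is not among the 6, gained 3.42 kb. The 6 are not simply the genes above a line on this difference. CCL3L3, MPO and CEBPE stood above AP5B1, and TSPOAP1 stood at −0.49 kb. After MYBPH came STAB1 with 3.30 kb, IRF2BP2 with 3.28 kb and HLX with 3.18 kb.

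**Figure D2:**
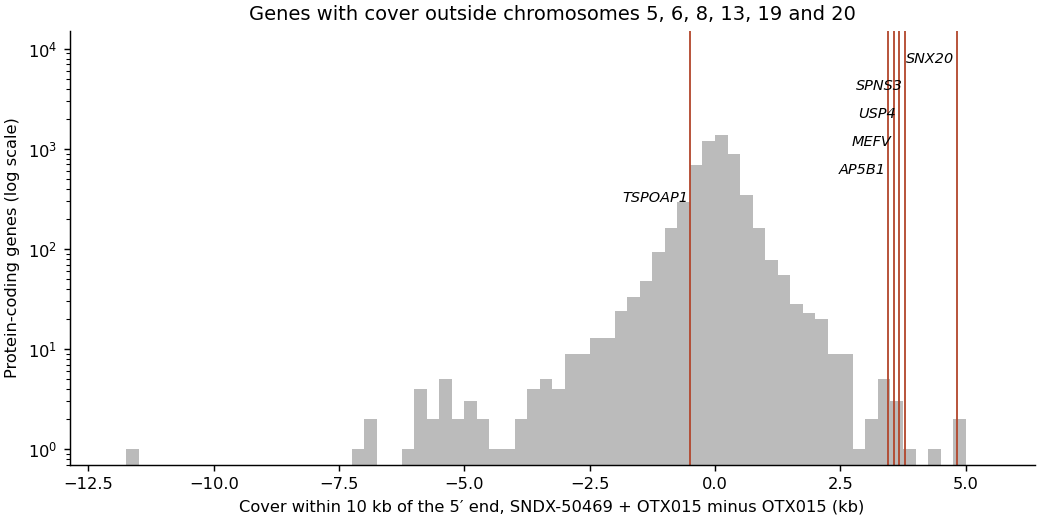
Number of protein-coding genes (log axis) by the difference in 5′ window cover, SNDX-50469 + OTX015 minus OTX015, in kb, for genes with cover off chromosomes 5, 6, 8, 13, 19 and 20, with the 6 genes as vertical lines. SNX20, SPNS3, USP4, MEFV and AP5B1 stand in the right tail between 3.45 and 4.83 kb, where the choice put them, and TSPOAP1 stands at −0.49 kb.

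SNX20 (NCBI gene 124460) lies on the minus strand of chromosome 16, at chr16:50666300-50681312 of GRCh38. Its 5′ window held 5.95 kb under 7 peaks in co-treated cells and 1.12 kb under 3 peaks in OTX015 cells, a difference of 4.83 kb. The longest co-treated peak ran from −4176 to −1280 bp of the 5′ end (negative is upstream), where OTX015 cells had separate peaks from −3609 to −2934 and from −2444 to −2129. Downstream of the 5′ end the co-treated library had 1.87 kb and the OTX015 library 0 kb, with peaks in the gene from 465 to 770 and from 1514 to 2955 bp. The 5′ end itself lay under no peak, and a peak within 1 kb of it was called in both libraries, 306 bp long downstream in co-treated cells and 132 bp long upstream in OTX015 cells. The bacterial sensor gene NOD2 starts at −12.3 kb, and 3 of the 7 co-treated peaks, with 1.19 kb, lay nearer to its 5′ end than to that of SNX20. NOD2's own window, which overlaps, held 3.80 kb in co-treated cells and 2.40 kb in OTX015 cells.

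MEFV (NCBI gene 4210), also on the minus strand of chromosome 16 at chr16:3242027-3256633, held 4.48 kb under 5 peaks in its window in co-treated cells and 0.916 kb under 3 peaks in OTX015 cells. Nearly all OTX015 cover was kept: 0.915 kb lay under peaks of both libraries, 3.56 kb under co-treated peaks only and 0.00100 kb under OTX015 peaks only. The co-treated peak from −3423 to −2486 bp had a deposited fold of 4.72 and a −log10 q of 3.68, and at the same place OTX015 cells had a peak of 228 bp. The gain was upstream, with 4.17 kb in co-treated cells and 0.916 kb in OTX015 cells. The longest co-treated peak, 2981 bp from −8280 to −5300, holds the 5′ end of the non-coding gene LINC00921, and 2 of the 3 OTX015 peaks lay nearer to that gene than to MEFV. Within 1 kb of the MEFV 5′ end only co-treated cells had a peak, of 168 bp.

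USP4 (NCBI gene 7375) lies on the minus strand at chr3:49277144-49340053. Its window held 5.36 kb under 8 peaks in co-treated cells and 1.70 kb under 4 peaks in OTX015 cells. A co-treated peak of 2094 bp from −1882 to 211 spanned the 5′ end, and the nearest OTX015 peak, of 937 bp, ended at −338. Upstream cover was 4.99 kb in co-treated cells and 1.70 kb in OTX015 cells, while downstream it was 0.368 kb and 0 kb. The upstream cover of co-treated cells came from a run of peaks 213 to 2094 bp long. Of 6 protein-coding genes with 5′ ends within 100 kb, 5 had cover. GPX1, a glutathione peroxidase gene, had 2.36 kb in co-treated cells and 1.14 kb in OTX015 cells, but RHOA, the GTPase gene, had less, with 2.25 kb in co-treated cells and 4.03 kb in OTX015 cells. AMT, which encodes a glycine cleavage enzyme, also had less, with 0.996 kb in co-treated cells and 3.50 kb in OTX015 cells.

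SPNS3 (NCBI gene 201305) is on the plus strand at chr17:4433940-4488204. Its window held 5.96 kb under 6 peaks in co-treated cells and 2.16 kb under 2 peaks in OTX015 cells. All of the OTX015 cover, 2.16 kb, lay inside co-treated peaks, so the difference was made of added bases alone. The peak over the 5′ end was 2012 bp long in co-treated cells, with a deposited fold of 5.15 and a −log10 q of 4.60, and 1009 bp long in OTX015 cells, with a fold of 3.48 and a −log10 q of 1.18. A peak inside the gene ran from 1617 to 3419 bp in co-treated cells and from 1662 to 2810 bp in OTX015 cells. Farther along the gene the order turned. Of the 8 OTX015 peaks in the locus 6 lay beyond the window, against 3 of 9 co-treated peaks, and the gain in the locus, 2.88 kb, was smaller than that in the window, 3.80 kb. The neighbouring SPNS2 had 0 kb in co-treated cells and 0.115 kb in OTX015 cells.

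AP5B1 (NCBI gene 91056), on the minus strand at chr11:65773898-65780976, had fewer and longer peaks under co-treatment. A single co-treated peak of 6430 bp, from 352 to 6781, took in most of the gene body. In OTX015 cells the body held a peak of 2803 bp from 1434 to 4236 and one of 119 bp. The window held 7.03 kb under 2 peaks in co-treated cells and 3.57 kb under 5 peaks in OTX015 cells. All co-treated cover was downstream of the 5′ end, and the OTX015 library had 0.303 kb upstream, within OVOL1, its antisense gene OVOL1-AS1 and the protein-coding gene LOC124902693, which overlap. OVOL1, a transcription factor gene that starts at −6087 bp of the AP5B1 5′ end, had 3.56 kb in co-treated cells and 3.36 kb in OTX015 cells in its own window.

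**Figure D3:**
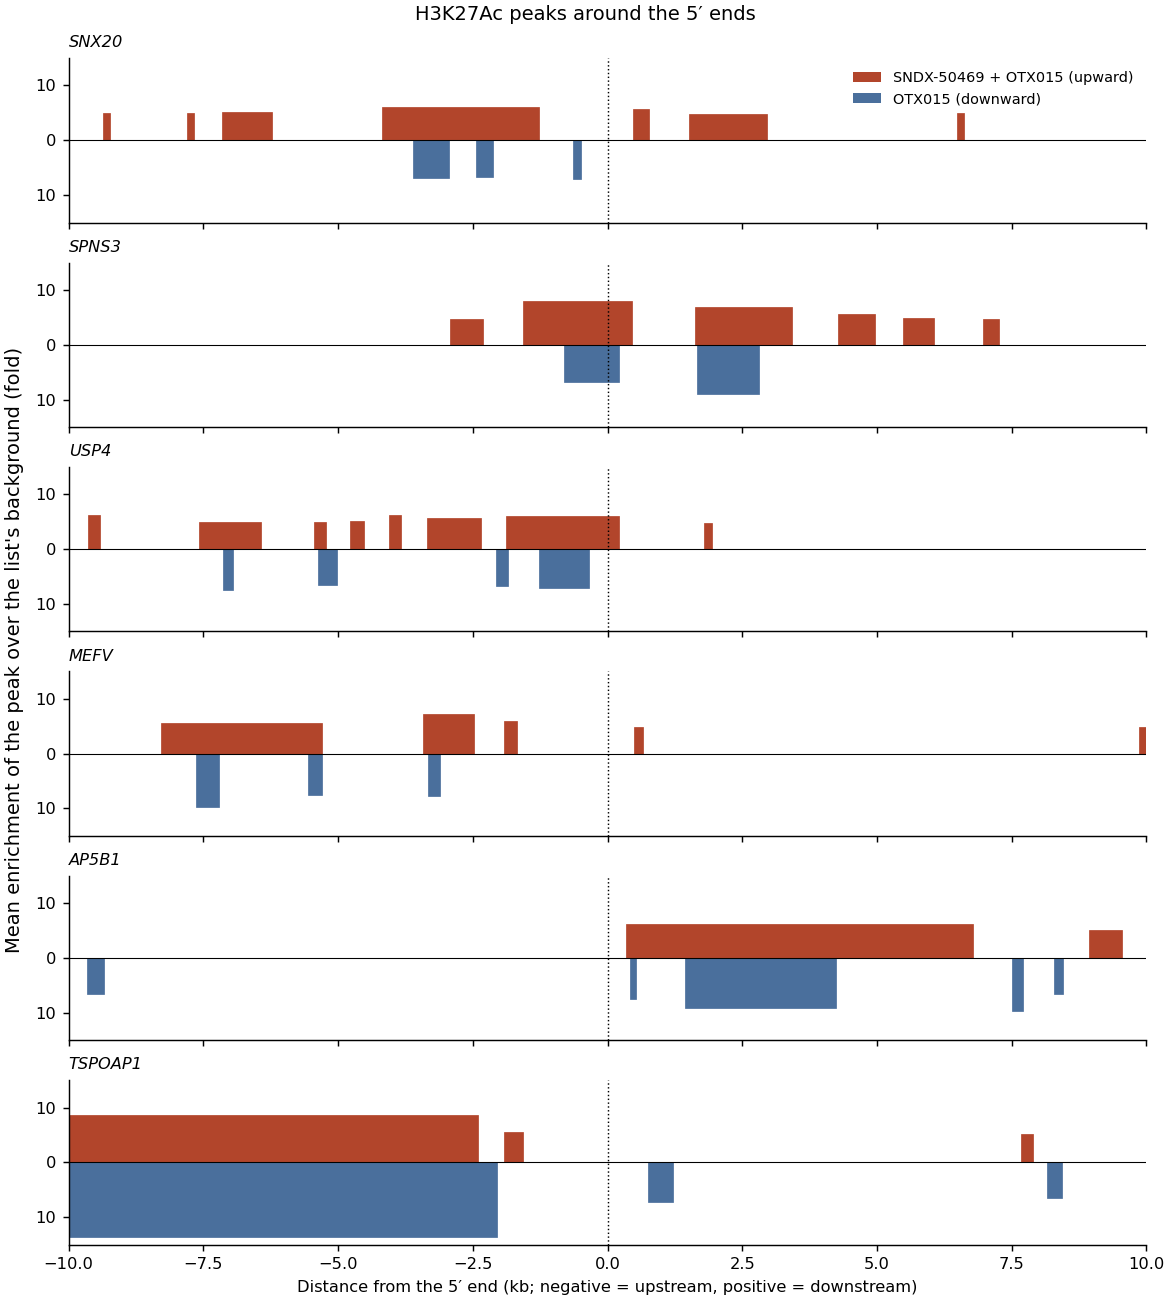
Each H3K27Ac peak within 10 kb of the 5′ end of the 6 genes, by distance from the 5′ end in kb (negative is upstream), with its mean enrichment over the background of its own list as height, SNDX-50469 + OTX015 upward and OTX015 downward. At SNX20, USP4 and MEFV the added co-treated peaks lie mainly upstream, at AP5B1 they fill the gene body, and at TSPOAP1 both libraries have a broad upstream peak.

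TSPOAP1 (NCBI gene 9256) lies on the minus strand at chr17:58301231-58328795. Its 5′ window held 8.20 kb in co-treated cells and 8.69 kb in OTX015 cells, each under 3 peaks, so the 5′ end did not gain. In both libraries 1 broad peak upstream made up most of this cover, 9137 bp long in co-treated cells and 9818 bp long in OTX015 cells. It holds the 5′ ends of MIR142HG and MIR4736 and the MIR142 hairpin, and of the window's bases 7.61 kb lay under peaks of both libraries. The antisense gene TSPOAP1-AS1 starts at 3345 bp inside TSPOAP1, and its peaks cannot be told apart from those of TSPOAP1. The gene body held 4.57 kb in co-treated cells and 1.04 kb in OTX015 cells, and the locus 13.1 kb under 13 peaks and 8.98 kb under 5 peaks. The longest of the peaks in the body and beyond it was a co-treated peak of 1386 bp from 22635 to 24020. Each co-treated peak in the body had a −log10 q under 2. With a minimum −log10 q of 2 the locus difference turned to −0.17 kb, and at the common enrichment it was −1.38 kb. MPO, the myeloperoxidase gene, starts 47.9 kb away, beyond the 3′ end of TSPOAP1, and SUPT4H1, an elongation factor gene, had 2.42 kb in co-treated cells and 4.08 kb in OTX015 cells.

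The genes thus differed in where the cover lay. Upstream of the 5′ end 5 of the 6 genes had more cover in co-treated cells, by 0.0270 to 3.29 kb, and AP5B1 had less. Downstream, within the window, 5 had more, by 0.310 to 3.76 kb, and TSPOAP1 had less. These counts split the window difference that the choice used, and no share over all genes was computed beside them. They only describe where the gains lay. A peak at most 1 kb from the 5′ end was called in both libraries at 4 of the 6 genes, SNX20, SPNS3, USP4 and AP5B1, against 5.91% of the 14827 genes. It was called in co-treated cells only at MEFV, as at 3.43% of those genes, and in OTX015 cells only at TSPOAP1, as at 5.51%. Only 5638 of the 14827 genes had any cover in the window, and the choice used cover around the same 5′ ends. Nothing is therefore read from these shares.

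In the windows, chosen for more co-treated cover, much of the OTX015 cover also lay under co-treated peaks. Of the OTX015 cover in the 6 windows 87.6% lay under co-treated peaks, and 43.0% of the co-treated cover lay under OTX015 peaks. Without TSPOAP1, whose window did not gain, these shares were 87.67% and 28.85%. Over the whole of the less dense chromosomes the shares were 33.0% of the co-treated cover and 32.9% of the OTX015 cover. Counted by peaks, with an overlap of at least 1 bp, 10 of the 31 co-treated peaks (32.3%, Wilson 95% interval 18.6 to 49.9%) and 14 of the 20 OTX015 peaks (70.0%, 48.1 to 85.5%) met a peak of the other library. Over all peaks off the dense chromosomes the shares were 18.6% of co-treated and 20.2% of OTX015 peaks. With an overlap of at least 50% of both peaks, only 3 pairs were left in the windows, 9.68% of the co-treated peaks and 15% of the OTX015 peaks. The intervals cover counting error only and take the peaks as independent. The OTX015 cover was smaller in the windows and the co-treated cover larger, as the choice of genes fixes. The shares of each thus differ in part by construction. More co-treated cover in a window also makes it likelier that an OTX015 peak there meets a co-treated one. Nothing is therefore read from these shares beside those over the less dense chromosomes. The median co-treated peak in the windows was 571 bp long and the median OTX015 peak 310 bp, and 10 co-treated peaks and 4 OTX015 peaks reached 1 kb. Over all peaks off the dense chromosomes the medians were 251 bp in co-treated cells and 256 bp in OTX015 cells. There 6.85% of co-treated and 8.91% of OTX015 peaks reached 1 kb. Windows chosen for more co-treated cover favour long co-treated peaks, so nothing is read from the lengths.

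The cover around the genes did not move in one direction. In the 500 kb either side, leaving out the window, TSPOAP1 had 30.3 kb in co-treated cells and 16.6 kb in OTX015 cells, AP5B1 had 28.4 and 18.1 kb, and MEFV had 11.7 and 4.88 kb. The surroundings of USP4 had 18.2 kb in co-treated cells and 17.6 kb in OTX015 cells. Around SNX20 and SPNS3 there was less, with 16.5 kb in co-treated cells and 21.2 kb in OTX015 cells for SNX20 and 4.76 and 6.17 kb for SPNS3. The gains of SNX20 and SPNS3 thus stood in surroundings with less cover, and those of MEFV and AP5B1 in surroundings with more.

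The height of the highest peak in the window depended on how it was measured. The deposited fold was higher in co-treated cells at 3 of the 6 genes, against 20.0% of 2095 genes off the dense chromosomes with window peaks in both libraries. These were SPNS3, with 5.15 in co-treated cells and 4.47 in OTX015 cells, USP4, with 4.07 and 3.78, and SNX20, with 4.02 and 3.61. The highest −log10 q was higher at those genes and at MEFV, 4 of 6, against 54.2% of the 2095. Both values belong to the same window peaks whose cover was used to choose the genes. Nothing is therefore read from the shares for fold and −log10 q. The deposited fold carries a pseudocount of 1 in both pileup and background, which lowers it more in the shallower library. With the pseudocount taken out, the mean enrichment over the inferred background of the same library was lower in co-treated cells at all 6 genes, as it was at 99.8% of the 2095 genes, so nothing particular to the 6 is read from it. It was 8.71 times background in co-treated cells and 13.6 times in OTX015 cells at TSPOAP1, and 7.25 and 9.71 times at MEFV. It was 6.22 and 9.65 times at AP5B1 and 7.98 and 9.02 times at SPNS3. USP4 had 6.17 and 7.42 times, and SNX20 had 6.07 and 7.02 times. The value is a mean over a broad peak, so a long peak with weak edges has a lower value, and the weakest peak listed stood higher in OTX015 cells. At SPNS3 the peak over the 5′ end itself was higher by this measure too, at 7.98 times background in co-treated cells and 6.72 times in OTX015 cells. At SNX20, USP4 and AP5B1 the highest co-treated peak was below the weakest enrichment that the OTX015 list holds.

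**Figure D4:**
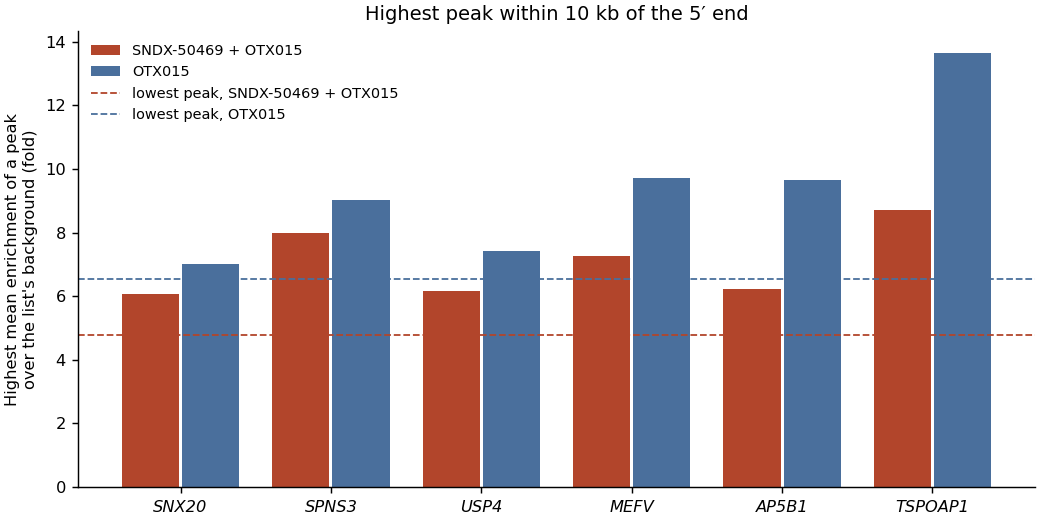
Mean enrichment over background (fold) of the highest peak within 10 kb of the 5′ end of each gene, as bars for SNDX-50469 + OTX015 and OTX015, with dashed lines at the lowest peak of each list. Each co-treated bar is below its OTX015 bar, and those of SNX20 (6.07), USP4 (6.17) and AP5B1 (6.22) lie under the line of the lowest OTX015 peak (6.54).

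With peaks of both lists kept only at an enrichment of at least 6.54 over background, the window differences of SNX20, USP4 and AP5B1 turned to −1.12, −1.70 and −3.57 kb, since no co-treated peak was left in those windows. SPNS3 kept a gain, of 1.66 kb, and MEFV was at 0.0220 kb. At this level 295 co-treated peaks and 15586 OTX015 peaks remained off the dense chromosomes, and 1.28% of genes with cover had more in co-treated cells, so the setting lowers co-treated cover nearly everywhere. The lists were also cut to equal numbers of peaks over all chromosomes, the strongest of each. Off the dense chromosomes this left 9567 co-treated and 15586 OTX015 peaks. Of the genes with cover there, 37.4% had more in co-treated cells. SNX20, SPNS3, USP4, MEFV and AP5B1 kept more cover in co-treated cells at this setting, by 2.34 to 3.51 kb. With a minimum −log10 q of 2 they also kept it, by 0.759 kb at MEFV to 3.54 kb at USP4, where 49.4% of genes had more. The part of depth in these gains was not tested.

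**Figure D5:**
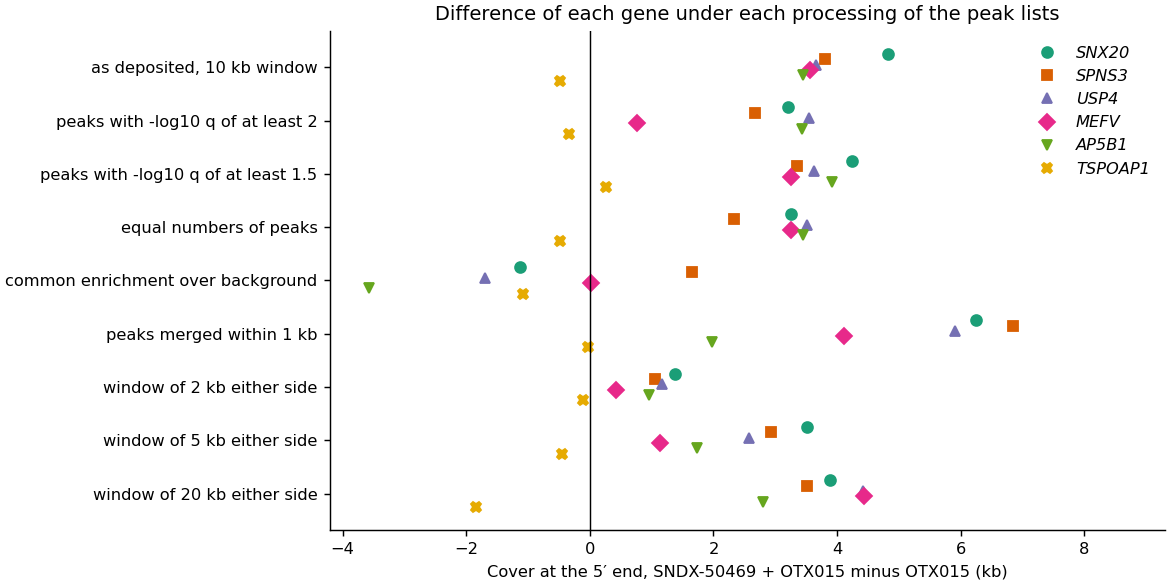
Difference in cover at the 5′ end, SNDX-50469 + OTX015 minus OTX015, in kb, for each of the 6 genes (markers) under the peaks as deposited and 8 other ways to process them. SNX20, SPNS3, USP4, MEFV and AP5B1 lie right of 0 in each row but the common enrichment, where SNX20, USP4 and AP5B1 lie left of it, and TSPOAP1 lies right of 0 only with a minimum −log10 q of 1.5 (0.254 kb).

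The counts of genes that share a family, complex or pathway with the 6 are read against all protein-coding genes, of which 61.1% of the 9305 with cover had more in co-treated cells, with a median difference of 0.146 kb. Off the dense chromosomes the share was 53.3%, as above. Of 14 genes of pyrin and other inflammasomes, 10 had cover, 4 with more in co-treated cells and 6 with less, and the median difference was −0.15 kb. NLRP3, a sensor gene, had 0.262 kb in co-treated cells and 2.21 kb in OTX015 cells, and PSTPIP1, a pyrin-binding protein gene, had 2.20 kb in co-treated cells and 0.134 kb in OTX015 cells. Off the dense chromosomes 2 of these genes, PSTPIP1 and NOD2, had more and 6 less. The window of NOD2 overlaps that of SNX20, which was chosen for its gain, so the cover of NOD2 is in part the same peaks. GSDMD, the pore-forming gasdermin gene, is on a dense chromosome and had 12.0 kb in co-treated cells and 9.61 kb in OTX015 cells.

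Of 13 genes of sphingosine-1-phosphate handling and Spinster transporters, 7 had cover, 4 with more and 3 with less, with a median difference of 0.297 kb, but all 3 off the dense chromosomes had less. Among these SPNS1, a lysosomal lysophospholipid transporter gene, had 0.241 kb in co-treated cells and 1.33 kb in OTX015 cells. The receptor genes S1PR4 and S1PR5, both on dense chromosome 19, had 5.25 and 2.89 kb in co-treated cells against 3.77 and 1.06 kb in OTX015 cells.

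Of 5 genes of adaptor complex 5 and its partners, 4 had cover and 3 had more in co-treated cells, with a median difference of 0.317 kb. Off the dense chromosomes 3 had cover, 2 with more and 1 with less. AP5S1, the sigma subunit gene on dense chromosome 20, had 5.37 kb in co-treated cells and 2.05 kb in OTX015 cells, while AP5M1, the mu subunit gene, had 0.346 and 0 kb. Of 21 other sorting nexin genes with SELPLG, 10 had cover, 7 with more and 3 with less, with a median difference of 0.257 kb. Off the dense chromosomes 3 had more and 3 less. SELPLG had less cover, with 9.79 kb in co-treated cells and 11.2 kb in OTX015 cells, while the endosomal retrieval gene SNX27 had 1.29 kb in co-treated cells and 0 kb in OTX015 cells. SNX16, on dense chromosome 8, had 4.85 kb in co-treated cells and 0.456 kb in OTX015 cells.

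Of 13 paralogs, substrates and partners of USP4, 10 had cover, 6 with more and 4 with less, with a median difference of 0.152 kb. USP1, a deubiquitinase gene of DNA repair, had 0.245 kb in co-treated cells and 1.78 kb in OTX015 cells. TSPO, the partner of TSPOAP1, had 0.301 kb in co-treated cells and 0.153 kb in OTX015 cells.

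By the distance between pairs of 5′ window covers, over 2 libraries and with genes at least 100 kb away, HLX, a homeobox gene, was most like USP4, with 4.78 kb in co-treated cells and 1.60 kb in OTX015 cells. STAB1, a scavenger receptor gene, was most like MEFV, with 4.69 and 1.39 kb. RHOF, a small GTPase gene, was most like AP5B1, with 6.73 and 4.07 kb, and DENND2D, a GTPase regulator gene, was most like TSPOAP1, with 8.05 and 8.45 kb. CCL4L2, a chemokine gene with near-identical copies, was nearest to both SNX20 and SPNS3, with 6.07 kb in co-treated cells and 2.33 kb in OTX015 cells, and its reads may be shared among the copies.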

How the data were processed

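H3K27Ac was measured by ChIP-seq in MOLM13 cells treated with SNDX-50469 + OTX015 or with OTX015, 1 library each. Per the submitters' processing notes, the tools were bcl2fastq 2.17, Trimmomatic 0.33, Bowtie 1.1.2, MACS2 2.1.0 and deepTools, with GRCh38. The authors deposited 1 broad peak list per library, and the deposited values of each peak are a score, the fold of pileup over background (a ratio averaged along the peak), a −log10 p and a −log10 q. The deposited score was the −log10 q times 10 without its decimals for 86206 of 86207 co-treated and 55849 of 55852 OTX015 peaks. The lists hold no counts. The background was solved from the fold and −log10 p of the weakest peaks under a Poisson model with a pseudocount of 1, and depth is thus inferred.

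Gene positions came from the RefSeq table of GRCh38.p14. A single strand was found for 19675 of 20037 protein-coding genes, 15842 from the RefSeq promoter table and the rest from GENCODE by symbol and chromosome. The sources gave the same strand for 15225 of the 15288 genes that both hold. Cover is the union of peaks. Of the 6 genes, USP4, AP5B1 and MEFV matched the promoter table. The genome given is GRCh37 and was not used for coordinates.

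The members and lists were chosen with earlier results of these data known. Named are the 6 genes, genes with 5′ ends in their windows and protein-coding genes whose bodies meet a peak there. The rule also names the 12 largest window gains at least 20 kb apart and the gene nearest in pattern to each of the 6. Members of the 6 family and pathway lists that differed by at least 1 kb are named too. Marker genes are given as counts and sums. Some markers, members of small lists and neighbours outside this rule are also named where a paragraph describes them, chosen after their values were seen. Alternatives were stricter peaks, equal peak numbers, a common enrichment, merged peaks, other windows and other overlaps. In tests on simulated data, 200 of 200 covers and 200 of 200 backgrounds came out as set. Values were computed with pandas 2.3.3 and numpy 2.4.6 under Python 3.11.15, intervals with statsmodels 0.14.6, the background with scipy 1.17.1 and plots with matplotlib 3.10.9.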

Additional observations from a re-analysis of the deposited data

How the results depend on the processing

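With 1 library per treatment and depth known only by inference, small differences in cover could not be told from sampling of weak peaks. The summed window difference of the 6 genes was 18.8 kb and turned to −5.80 kb at a common enrichment over background. It was 4.87 kb with 2 kb windows and 11.4 kb with 5 kb windows. The summed locus difference of 22.7 kb turned to −7.71 kb at the common enrichment and was 13.4 kb with −log10 q of at least 2 and 11.5 kb in the gene body alone. At the common enrichment 2 windows and 2 loci were covered more. That setting turned the locus differences of SNX20, USP4, AP5B1 and TSPOAP1 to −1.12, −1.82, −3.77 and −1.38 kb, and the window differences of SNX20, USP4 and AP5B1 to −1.12, −1.70 and −3.57 kb. The locus of TSPOAP1 turned to −0.17 kb with −log10 q of at least 2, and its window turned to 0.254 kb with −log10 q of at least 1.5. The cause was not tested. With an overlap of at least 50% of both peaks, 9.68% of co-treated and 15% of OTX015 peaks in the windows were shared. Leaving out TSPOAP1, chosen after seeing the data, gave windows of 28.8 kb in co-treated cells and 9.47 kb in OTX015 cells. No paired analysis was possible because each treatment has 1 library and the labels carry no replicate numbers.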
